A study of Homo sapiens with 10 samples.

Results

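The genes described here are 43 genes of the neuronal synapse and of neuronal ion channels, chosen by name: all entries of the count files whose identifier maps to one of the 43 symbols were taken. The names were chosen with earlier results of these data known. All 43 were found among 57820 gene identifiers, and 29 of them passed the filter on low counts and were tested. The study measured poly(A)-selected RNA in D425 and HD-MB03, a pair of cell lines of Group 3 medulloblastoma, a childhood tumour of the cerebellum. Its question was what changes when CRX, a homeobox gene that drives the photoreceptor program, is silenced with short hairpin RNA. For D425 there were 2 parental libraries, 1 with the empty Tet-pLKO-puro vector and 3 labelled shCRX. For HD-MB03 there were 1 parental, 1 empty-vector and 2 libraries labelled shCRX.

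Per the labels, doxycycline at 4 µg/ml for 72 h is given as the treatment of every library, controls included, so the exposure is common to all groups. Whether its effect was equal in them was not tested. The transduced cells were stable polyclonal populations, a pair of hairpins was used, and which hairpin a library carried is not stated. The parental and vector libraries of a line were used together as its controls. Whether the libraries of a group are separate cultures is not stated. The p-values therefore measure the spread between these libraries alone, which may be technical.

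At a synapse, neurotransmitter is held in vesicles whose membrane carries proteins such as synaptophysin, the synapsins and SV2. A rise in calcium through voltage-gated channels is sensed by synaptotagmin, and the SNARE proteins of vesicle and plasma membrane then fuse the membranes. Neurexins and neuroligins hold the sides of the synapse together, and glutamate receptors are anchored by scaffold proteins on the receiving side. Many such genes are repressed outside neurons by REST, and their levels rise as neurons mature. Medulloblastoma cells are of neural origin, and synaptophysin is one of the markers that pathologists stain for in this tumour.

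CRX itself stood at 47.5, 29.7 and 64.9 CPM (reads counted for the gene, scaled to a common library size) in the D425 parental libraries 1 and 2 and the vector library, and at 20.3, 20.9 and 25.3 CPM in D425 shCRX libraries 1 to 3. In HD-MB03 it stood at 12.5 and 12.3 CPM in the parental and vector libraries and at 27.7 and 23.5 CPM in the libraries labelled shCRX. The arms did not overlap in either line, but the direction went against the label in HD-MB03. The log2 fold change was -1.10 ± 0.26 (SE) in D425 (edgeR adjusted p = 0.0436) and 1.04 ± 0.36 in HD-MB03 (edgeR adjusted p = 0.174). Directions in HD-MB03 are therefore those of the libraries labelled shCRX, and not of lower CRX.

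Library depth ran from 1.96 to 18.06 M counted reads and differed between the arms: 11.36 to 18.06 M in D425 controls, 3.64 to 9.53 M in D425 shCRX, 1.96 to 2.08 M in HD-MB03 controls and 14.26 to 14.55 M in the HD-MB03 libraries labelled shCRX. The HD-MB03 controls also stood apart in their unaligned reads, 30.9% and 26.4% of the total against 4.54% to 7.99% in the other libraries. The numbers in the deposited library names ran from 20 to 62 in D425 shCRX and HD-MB03 controls and from 110 upwards in D425 controls and the HD-MB03 libraries labelled shCRX. Within a line, the arm and this set of library numbers cannot be told apart. All 7 Group 3 medulloblastoma markers listed (MYC, OTX2, NRL, IMPG2, NPR3, GABRA5 and EYS) were above 1 CPM in some library, and summed to between 2963 and 8888 CPM. Of the markers of other cell types, the neural progenitor list summed to at most 382.1 CPM, the astrocyte list to at most 315.7 CPM, the endothelial list summed to at most 1.73 CPM, the microglia and leukocyte list to at most 13.1 CPM, the fibroblast list to at most 16.6 CPM and the oligodendrocyte list to at most 21.9 CPM.

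The 43 genes together held 786.7 to 1159 CPM in D425 libraries and 642.3 to 721.7 CPM in HD-MB03 libraries. In every library 3 genes made up 55.7% to 63.2% of that sum, and SYT1 was among those 3 in all 10 libraries. In D425, the mean reached 10 CPM for 13 of the 43 genes and 100 CPM for 3. In HD-MB03 these numbers were 12 and 2. At the other end, 14 genes had a mean under 1 CPM in both lines. In bulk RNA, fewer cells that express a gene and less RNA per cell cannot be told apart.

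**Figure D1:**
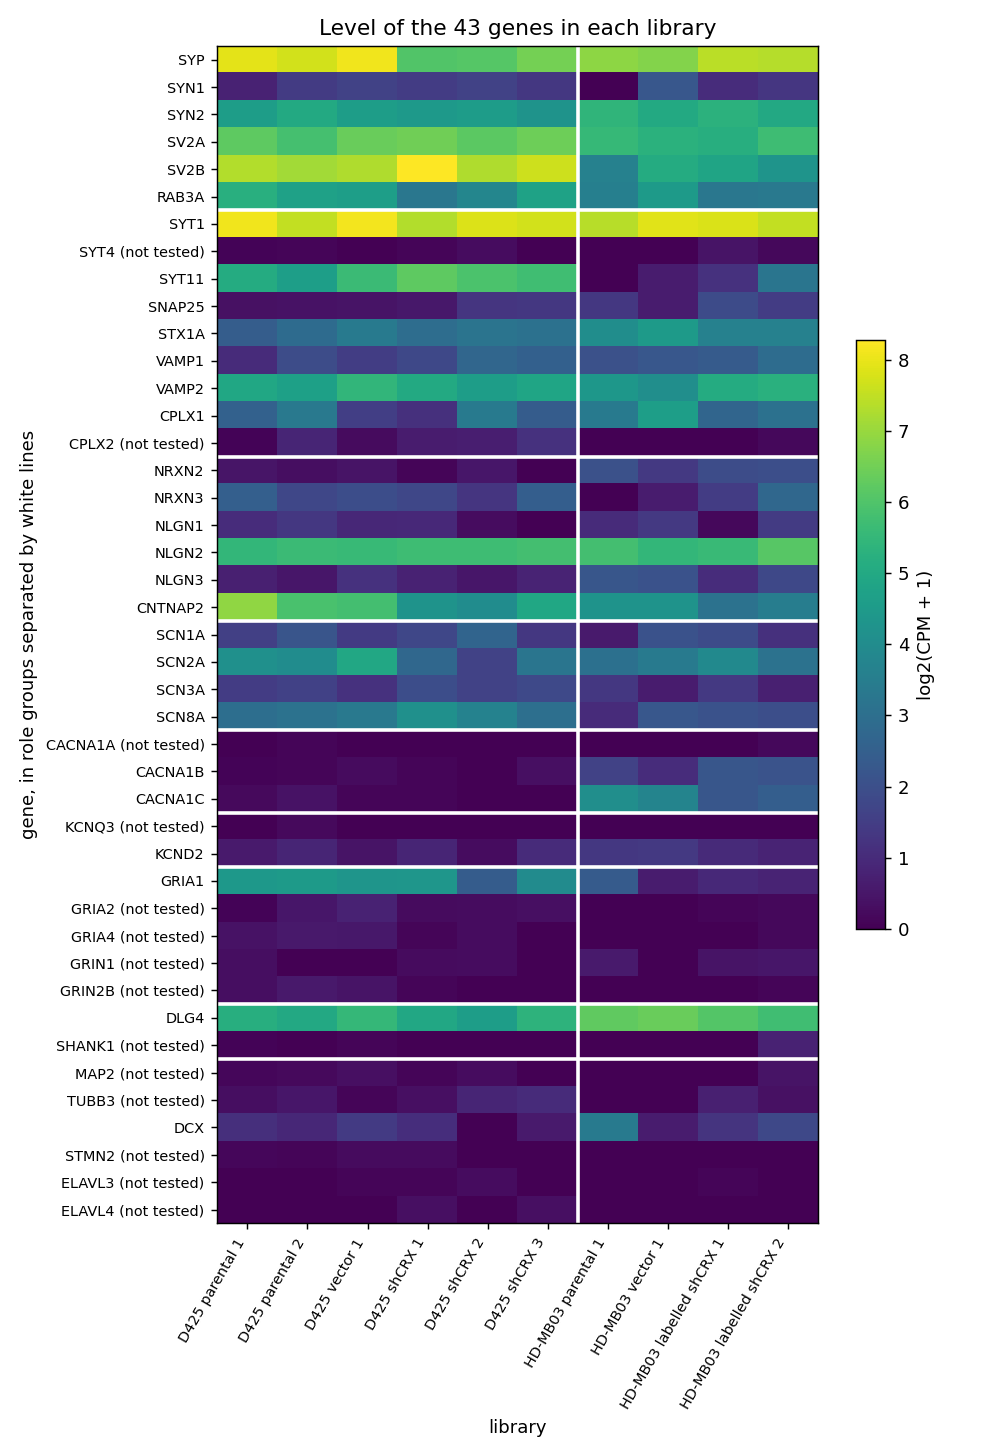
Level of each of the 43 genes in the 10 libraries as log2(CPM + 1), genes in rows by role (separated by white lines) and libraries in columns, D425 left of the vertical line. SYP, SYT1, SV2A, NLGN2 and DLG4 are bright in both lines, SYT11, SV2B and GRIA1 are brighter in D425, CACNA1C is brighter in HD-MB03, and the 14 genes marked as not tested stay at or under 1.279 CPM in every library.

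To compare genes with each other, CPM was divided by exon length in kb, with the mean and SD over the libraries of a line. SYT1, the calcium sensor of fast release, was highest in both lines, at 34.1 ± 7.3 CPM per kb (SD, n = 6) in D425 and 31.0 ± 5.0 (SD, n = 4) in HD-MB03. SYP followed at 30.3 ± 17.9 and 26.6 ± 6.0 CPM per kb, within the spread of SYT1. In D425 the next genes were the vesicle genes SV2A (15.8 ± 2.5 CPM per kb), SV2B (15.0 ± 5.1) and RAB3A (12.3 ± 5.5), which overlapped each other, and SYT11 (9.27 ± 3.4). In HD-MB03 the next were NLGN2 (9.68 ± 1.97 CPM per kb), SV2A (8.85 ± 1.45), VAMP2 (8.12 ± 3.11), RAB3A (6.98 ± 3.45), DLG4 (6.66 ± 1.27) and SYN2 (6.30 ± 0.94), again with overlapping spreads between neighbours. SV2B and SYT11, among the first 6 in D425, stood at 1.81 ± 0.75 and 0.483 ± 0.742 CPM per kb in HD-MB03.

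The 14 genes that were not tested had 2 to 34 counts over all 10 libraries together. They were SYT4, CPLX2, CACNA1A, KCNQ3, GRIA2, GRIA4, GRIN1, GRIN2B, SHANK1, MAP2, TUBB3, STMN2, ELAVL3 and ELAVL4. Among them are genes named in textbooks as neuronal: MAP2 of the dendrite microtubules, TUBB3 (class III beta-tubulin) and STMN2 of the growth cone. They also include the RNA-binding proteins ELAVL3 and ELAVL4, and the NMDA receptor subunits GRIN1 and GRIN2B. A count of 3 corresponds to 0.166 CPM in the deepest library and 1.53 CPM in the shallowest. The main fit did not test these genes. Ratios of their summed counts are given here with counting intervals that leave out the spread between libraries. Between D425 controls and the HD-MB03 libraries labelled shCRX, the interval lay above 1 for 4 of the 14. D425 controls were higher for GRIN2B (14 counts against 1, ratio 9.64, interval 1.47 to 407.4). So they were for GRIA4 (17 against 2, 5.85, 1.39 to 52.2) and CPLX2 (13 against 2, 4.47, 1.01 to 40.8). D425 shCRX libraries held 1 GRIN2B, 2 GRIA4 and 14 CPLX2 counts. The HD-MB03 libraries labelled shCRX were higher for SHANK1 (10 against 2, 7.26, 1.55 to 68.2). All 10 SHANK1 counts were in library 2, and 10 of the 13 CPLX2 counts in D425 parental library 2. In a fit without the filter on low counts, CPLX2 alone of the 14 was called between the lines (log2 difference 3.97, edgeR adjusted p = 0.0376). ELAVL4 had 0 counts in D425 controls and 4 in D425 shCRX, 3 of them in library 1. The counting intervals of the groups overlapped (0 to 0.0881 CPM in D425 controls and 0.0609 to 0.572 CPM in D425 shCRX). The value of TUBB3 (34 counts in all) has a further limit. A read-through gene on the same strand covers 35.8% of its exon bases in GENCODE 29, that gene's entry in the count files is at 0, and how reads in the shared exons were counted is not given in the sources used here.

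Promoter sequences show what lies upstream of the genes that the comparisons below turn on. RefSeq promoter windows (GRCh38.p14) of 300 bases, from 250 before to 50 after a start site, were matched for 34 of the 43 genes, 65 windows in all. Letters were searched on both strands: TAATCC, the core read by CRX and OTX2, then CANNTG, the E-box, and last the left part (AGCACC) and the right part (GGACAG) of the REST site. TAATCC was in 4 of 65 member windows (DCX, ELAVL4, MAP2 and SV2B), or 6.15%, and in 6.36% of all 35116 windows. AGCACC was in 15 member windows (23.1%, against 15.9% of all), GGACAG in 12 (18.5%, against 20.6%) and CANNTG in 44 (67.7%, against 68.7%). These windows belonged to 11, 12 and 26 member genes. Windows of a gene can overlap, as for GRIA2, so that a site is counted more than once. Both parts of the REST site stood in sequence, 2 bases apart, in 20 of the 35116 windows (0.0570%), and 2 of these were member windows, of SYN1 and GRIA2. The search for this joined form was added after the positions of the parts had been seen. A match describes the letters alone.

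The windows of SYP, CNTNAP2 and SCN2A are shown because these genes fell in D425 shCRX, that of SV2B because it holds TAATCC and the gene differed between the lines, and those of SYN1 and GRIA2 because they hold the joined REST parts. They are written 5′ to 3′ on the strand of the gene, and capitals mark the CRX core and the left and right parts of the REST site, on either strand. SCN2A, SV2B and GRIA2 have further start sites. A DCX window that is not shown also holds TAATCC (at -19), and DCX was called lower in D425 than in HD-MB03.
SYP, chrX:49200144-49200443, minus strand: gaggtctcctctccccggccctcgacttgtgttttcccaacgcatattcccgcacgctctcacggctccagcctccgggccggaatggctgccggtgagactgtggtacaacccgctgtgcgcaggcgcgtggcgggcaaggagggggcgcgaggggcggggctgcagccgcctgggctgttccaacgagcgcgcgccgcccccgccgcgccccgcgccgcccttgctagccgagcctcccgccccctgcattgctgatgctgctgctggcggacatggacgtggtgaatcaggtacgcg
CNTNAP2, chr7:146116551-146116850, plus strand: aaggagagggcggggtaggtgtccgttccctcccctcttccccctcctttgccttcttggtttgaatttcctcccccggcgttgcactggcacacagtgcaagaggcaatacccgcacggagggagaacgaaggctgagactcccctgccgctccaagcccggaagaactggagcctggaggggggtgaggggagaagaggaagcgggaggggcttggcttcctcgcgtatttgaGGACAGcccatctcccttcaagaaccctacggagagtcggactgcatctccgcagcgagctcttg
SCN2A, chr2:165239164-165239463, plus strand: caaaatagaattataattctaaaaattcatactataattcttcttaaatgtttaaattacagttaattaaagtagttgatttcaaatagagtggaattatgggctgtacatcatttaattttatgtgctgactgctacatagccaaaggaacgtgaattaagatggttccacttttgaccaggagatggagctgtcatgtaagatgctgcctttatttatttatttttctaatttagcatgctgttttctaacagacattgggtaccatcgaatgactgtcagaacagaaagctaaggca
SV2B, chr15:91101546-91101845, plus strand: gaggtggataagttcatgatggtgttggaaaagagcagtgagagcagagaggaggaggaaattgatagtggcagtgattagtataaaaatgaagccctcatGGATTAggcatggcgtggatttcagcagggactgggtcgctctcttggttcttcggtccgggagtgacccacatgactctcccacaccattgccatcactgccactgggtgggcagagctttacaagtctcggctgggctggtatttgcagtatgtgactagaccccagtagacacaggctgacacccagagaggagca
SYN1, chrX:47619808-47620107, minus strand: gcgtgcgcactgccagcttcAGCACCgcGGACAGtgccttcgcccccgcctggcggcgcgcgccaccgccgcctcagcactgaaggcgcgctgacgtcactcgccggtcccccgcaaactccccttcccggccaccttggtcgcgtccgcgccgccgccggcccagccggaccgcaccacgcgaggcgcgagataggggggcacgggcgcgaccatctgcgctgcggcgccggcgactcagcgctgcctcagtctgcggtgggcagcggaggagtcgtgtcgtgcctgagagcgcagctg
GRIA2, chr4:157220369-157220668, plus strand: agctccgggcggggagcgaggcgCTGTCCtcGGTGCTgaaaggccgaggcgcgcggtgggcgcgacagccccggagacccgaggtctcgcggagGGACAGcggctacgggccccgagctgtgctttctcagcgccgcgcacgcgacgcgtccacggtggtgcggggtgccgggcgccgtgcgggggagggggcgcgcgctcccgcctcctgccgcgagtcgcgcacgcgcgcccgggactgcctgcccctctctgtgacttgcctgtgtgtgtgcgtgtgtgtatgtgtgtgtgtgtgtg
The SYP window is 71.3% G and C and the SCN2A window 31.7%, and neither holds a capital. The CNTNAP2 window holds GGACAG 15 bases before the start (-15). In SV2B the match lies at -149 on the opposite strand, in SYN1 the joined parts begin at -230, and in GRIA2 they begin at -227 on the opposite strand.

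The first comparison asked which of these genes changed in D425 libraries labelled shCRX against D425 controls. SYP, the vesicle membrane protein synaptophysin, CNTNAP2, a neurexin-related adhesion protein of the axon, and SCN2A, a voltage-gated sodium channel, were lower, each by a log2 fold change between -1.69 and -1.96. No tested member was higher. Thus 0 of 29 rose and 3 of 29 (10.3%) fell at an edgeR adjusted p under 0.05, where 1.61% of all 16006 genes tested rose and 1.37% fell. Because the members were chosen with earlier results of these data known, these shares are no independent test of the list. The median log2 fold change was -0.22 over the 29 genes and 0.02 over all genes.

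SYP stood at 241.3, 209.9 and 271.4 CPM in the D425 parental libraries 1 and 2 and the vector library, and at 64.1, 67.8 and 92.3 CPM in shCRX libraries 1 to 3. The groups did not overlap, and the highest shCRX library was under the lowest control. The means were 240.8 ± 30.8 and 74.8 ± 15.3 CPM (SD, n = 3 each), and the log2 fold change was -1.69 ± 0.19 (SE, edgeR adjusted p = 9.34e-04). Against the vector library alone, a control arm of 1 library that is assumed to vary like the other groups, it was -1.89 (edgeR adjusted p = 0.0617). That fit called 8 of 16624 genes in D425, against 476 of 16006 with all controls.

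CNTNAP2 stood at 118.0, 58.3 and 55.0 CPM in the D425 controls, in the same order, and at 17.8, 15.1 and 29.4 CPM in shCRX. Parental library 1 was the high one among the controls, and the lowest control was still above the highest shCRX library. The means were 77.1 ± 35.5 and 20.8 ± 7.6 CPM (SD, n = 3 each), and the log2 fold change was -1.91 ± 0.33 (edgeR adjusted p = 0.0105). Against the single vector library it was -1.44, with an adjusted p of 0.227.

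SCN2A stood at 16.7, 15.3 and 30.2 CPM in the D425 controls and at 5.81, 2.07 and 8.19 CPM in shCRX. The vector library was the highest and the groups did not overlap. The means were 20.7 ± 8.2 and 5.36 ± 3.08 CPM (SD, n = 3 each), and the log2 difference was -1.96 ± 0.44 with an edgeR adjusted p of 0.0350. This call was the least stable of the 3. It was lost without D425 parental library 1 (adjusted p = 0.0559), the D425 vector library (0.129), shCRX library 1 (0.0699), shCRX library 2 (0.0554), the HD-MB03 parental library (0.0567) or the HD-MB03 vector library (0.0570). It was also lost with the trends in GC content and length removed (log2 fold change -1.67, adjusted p = 0.0531). With D425 libraries fitted alone the adjusted p was 0.0614, and with vector or parental controls alone it was 0.185 or 0.189.

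**Figure D2:**
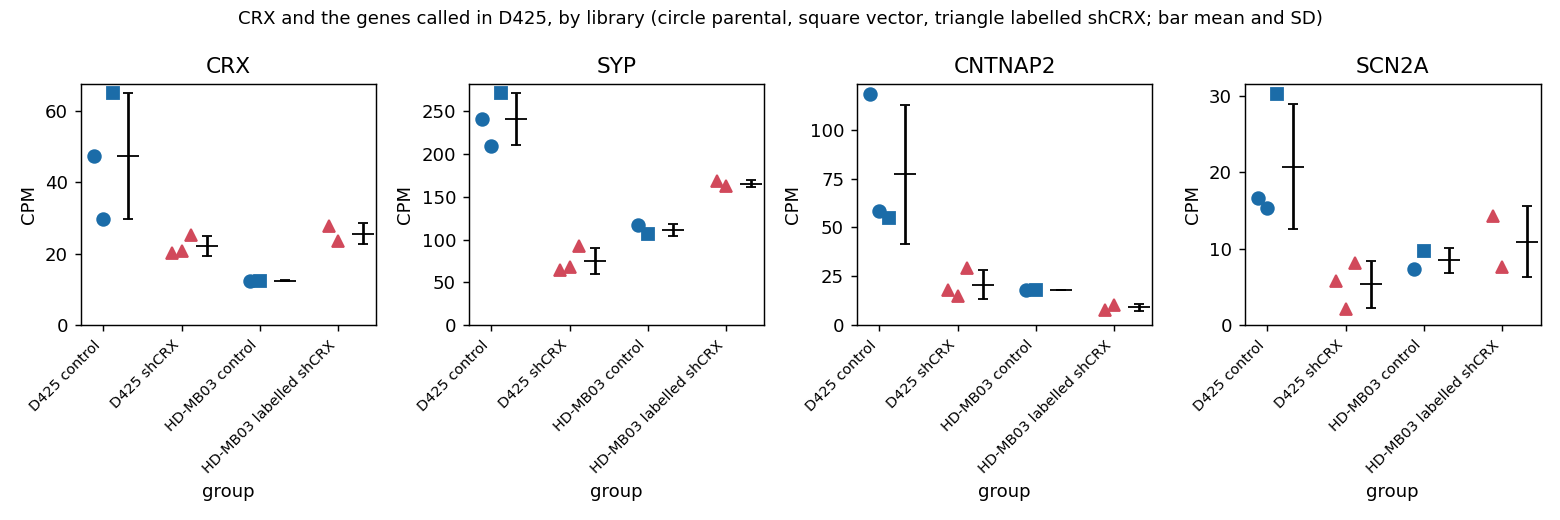
CPM (linear axes from 0) of CRX, SYP, CNTNAP2 and SCN2A by group, with circles for parental, squares for vector and triangles for shCRX libraries and a bar for mean and SD. In D425 the shCRX libraries of all 4 genes lie below every control, and in HD-MB03 the libraries labelled shCRX lie above the controls for CRX and SYP (168.5 and 162.6 against 116.6 and 106.7 CPM).

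The other vesicle genes did not pass in D425. SV2A had a log2 fold change of 0.22, SV2B of 0.54, SYN1 of 0.27 and SYN2 of -0.35. RAB3A, a small GTPase of vesicle docking, had -0.89 with an edgeR adjusted p of 0.230, and shCRX library 3 (26.1 CPM) lay within its controls (23.9 to 36.6 CPM). Of the fusion machinery, 0 of 7 tested genes passed. SYT1 had a log2 fold change of -0.30, SYT11 of 0.81, STX1A (syntaxin-1A) of 0.13, VAMP2 (synaptobrevin-2) of -0.22 and CPLX1 (complexin) of -0.18. SNAP25, the other plasma-membrane SNARE protein, was at 0.280 to 0.364 CPM in controls and 0.461 to 1.54 CPM in shCRX, and its fold change was 1.69 on the log2 scale (edgeR adjusted p = 0.194). VAMP1 had 1.17 (adjusted p = 0.223).

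Among the adhesion genes other than CNTNAP2, log2 fold changes in D425 were -1.03 for NRXN2, -0.28 for NRXN3, -1.24 for NLGN1, 0.18 for NLGN2 and -0.24 for NLGN3, and none passed. NLGN2, the neuroligin of inhibitory synapses, was the most even, at 43.6 to 48.9 CPM in controls and 50.9 to 55.3 CPM in shCRX. The sodium channels SCN1A (0.38), SCN3A (0.56) and SCN8A (0.59) had positive log2 fold changes that did not pass. The calcium channels CACNA1B and CACNA1C held 4 and 8 counts in all D425 controls together. KCND2, a channel of A-type potassium current, had a log2 fold change of 0.31. GRIA1, an AMPA receptor subunit, had -0.64 (adjusted p = 0.511), with shCRX library 2 at 4.34 CPM and the other 2 at 19.2 and 14.8 CPM. DLG4, the scaffold PSD-95, had -0.25, and DCX (doublecortin, of migrating neurons) had -0.94 at 1.23 CPM in controls.

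Other measures moved with the arm in D425. The sum of the Group 3 markers was 5504 to 6368 CPM in controls and 2963 to 4640 CPM in shCRX. Of the 6 tested, 2 were called lower, GABRA5 (log2 fold change -1.85) and IMPG2 (-0.92), and 0 higher, where 1.37% and 1.61% of all genes were. The other tested Group 3 markers were not called. The 7 astrocyte markers summed to 106.8 to 163.7 and 72.9 to 105.3 CPM. Of the 4 astrocyte markers tested, SLC1A3, a glutamate transporter, was called lower (log2 fold change -1.50), the others were not called, and the median was 0.06, while AQP4, ALDH1L1 and S100B were under 1 CPM in every library. Their part in the result was not tested.

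In HD-MB03, the same test called none of the 29 genes: 0 rose and 0 fell, where 0.262% of all genes tested rose and 1.24% fell. With edgeR, 6 of the 29 had an unadjusted p under 0.05, and so had 17.2% of all genes. DESeq2 called 1 gene, CACNA1C. The median log2 fold change was 0.05 over the 29 genes and 0.10 over all genes. The control libraries here are the 2 shallowest. With every library thinned to the depth of the shallowest, edgeR called 211 of 12286 genes in HD-MB03, against 241 of 16006 at full depth.

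CACNA1C, the pore subunit of an L-type calcium channel, had the smallest adjusted p in HD-MB03. It stood at 16.1 and 12.3 CPM in the parental and vector libraries and at 3.65 and 4.58 CPM in the libraries labelled shCRX. The groups did not overlap, and the log2 fold change was -1.79 ± 0.53 (SE, edgeR adjusted p = 0.119). VAMP2 was at 19.8 and 16.1 CPM in controls and at 33.4 and 37.0 CPM in the libraries labelled shCRX, again without overlap. Its fitted log2 fold change was 0.97 ± 0.31 (edgeR adjusted p = 0.147). In GENCODE 29, 13.2% of the VAMP2 exon bases lie in another gene on the same strand. SYP was at 116.6 and 106.7 CPM in controls and at 168.5 and 162.6 CPM in those labelled shCRX. Its fitted log2 fold change was 0.57 ± 0.23 (edgeR adjusted p = 0.235).

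Rare transcripts set the largest fold changes in HD-MB03. SYT11, a synaptotagmin that does not bind calcium, had 1 count in the 2 controls together and 134 counts in those labelled shCRX, a ratio of 18.8 with a counting interval of 3.31 to 747.4. Of the libraries labelled shCRX, library 2 was at 8.31 CPM and library 1 at 1.29 CPM. With library 1 left out, so that 1 library labelled shCRX is assumed to vary like the other groups, SYT11 was called at 4.90 on the log2 scale (edgeR adjusted p = 0.0386). NRXN3, a neurexin, had 1 and 105 counts, a ratio of 14.7 with a counting interval of 2.59 to 586.8. The neural progenitor markers summed to 137.4 to 148.0 CPM in HD-MB03 controls and to 337.0 to 382.1 CPM in the libraries labelled shCRX. Of the 5 markers tested, 0 were called higher and 0 lower in HD-MB03. The sum moved with the arm, and the part of these markers in the values above was not tested.

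**Figure D3:**
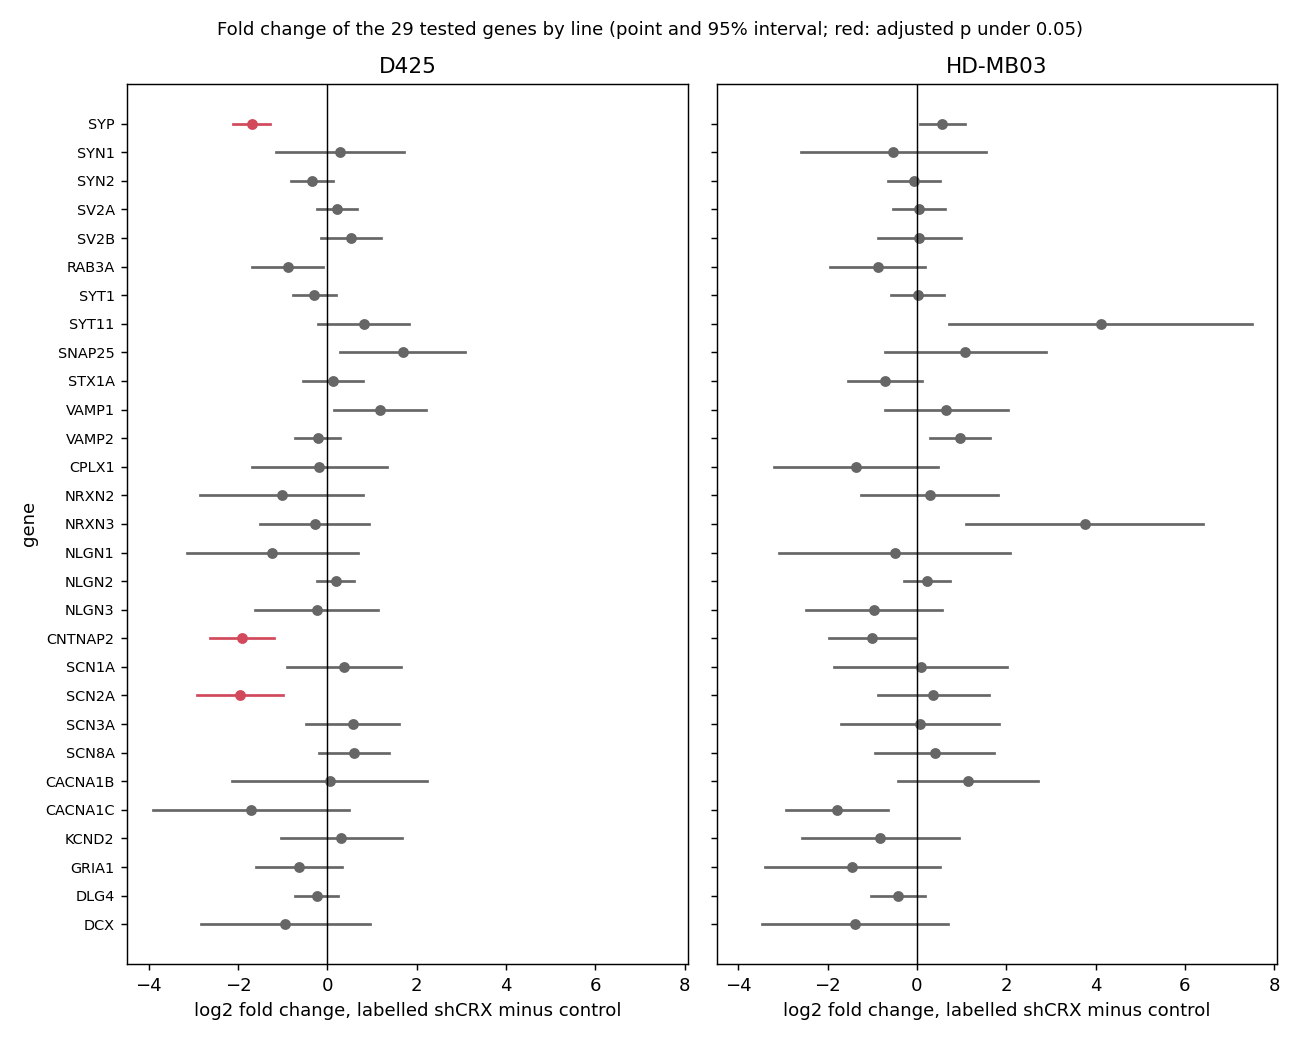
Log2 fold change of the libraries labelled shCRX against controls for the 29 tested genes, D425 left and HD-MB03 right, with points for the estimate, lines for the 95% interval and red for an adjusted p under 0.05. SYP, CNTNAP2 and SCN2A are red in D425, no gene is red in HD-MB03, and the intervals of SYT11 and NRXN3 in HD-MB03 are among the widest.

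For the mean of both lines, edgeR called 0 of 29 higher and 0 of 29 lower, where 0.0187% and 0.206% of all genes were called. CRX was lower under the shCRX label in D425 and higher in HD-MB03. Averaged here it came to -0.03 (log2, SE 0.23), with 0.978 as its adjusted p in edgeR. This mean therefore describes what the libraries labelled shCRX share, and not a shared fall in CRX. In edgeR, 9 of the 29 had an unadjusted p under 0.05, and 13.2% of all genes did. DESeq2 called 2 genes, SYP and CNTNAP2. CNTNAP2 came nearest, at -1.46 ± 0.28 on the log2 scale in the mean of the lines (edgeR adjusted p = 0.0584). It fell by 1.91 in D425 on the log2 scale, and in HD-MB03 it was at 18.2 and 18.2 CPM in controls and 7.72 and 10.5 CPM in those labelled shCRX (log2 fold change -1.0, edgeR adjusted p = 0.270). Every library labelled shCRX was thus below every control of its line for this gene.

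Whether the lines differed in their shCRX effect was tested directly, as the D425 effect minus the HD-MB03 effect. SYP was the 1 gene of 29 called, with a difference of -2.26 ± 0.30 on the log2 scale (edgeR adjusted p = 0.00177), from a fall in D425 and the higher level in HD-MB03 libraries labelled shCRX. Of all genes, 2.67% had a higher and 1.49% a lower effect in D425, against 0 and 1 of the 29. CRX differed in the same direction, by -2.14 ± 0.45 (edgeR adjusted p = 0.0199). SCN2A had a difference of -2.33 ± 0.72 that did not pass (edgeR adjusted p = 0.0897). NRXN3 (-4.05, adjusted p = 0.118) and VAMP2 (-1.19, adjusted p = 0.105) did not pass either.

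The lines themselves differed in 15 of the 29 genes. D425 was compared with HD-MB03 inside each set of library numbers and the results were averaged: 7 genes (24.1%) were higher in D425 and 8 (27.6%) were lower. Of all genes, 24.4% were higher and 21.6% lower, so these shares were near the background. In the set numbered 20 to 62 (D425 shCRX against HD-MB03 controls), 5 were higher and 8 lower, against 16% and 14.7% of all genes. In the set numbered 110 and above (D425 controls against HD-MB03 labelled shCRX), 7 were higher and 5 lower, against 15.5% and 15.8% of all genes. The sets have no library in common, and 8 genes were called in both with the same sign and 0 with opposite signs. Over all genes tested, 18.6% were called in both with the same sign and 0.0812% with opposite signs, against 27.6% and 0 of the members. Of the 15 genes, 14 had the same sign in both sets.

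SV2B, a vesicle membrane protein, stood at 139.7 to 160.0 CPM in D425 controls and 154.1 to 308.2 CPM in D425 shCRX. In HD-MB03 it was at most 32.7 CPM in controls and 27.2 CPM in those labelled shCRX. Every D425 library was above every HD-MB03 library, and the log2 difference was 3.03 ± 0.29 (edgeR adjusted p = 5.08e-06), 3.33 in the set of low numbers and 2.73 in the set of high numbers. SV2A, its relative and the binding site of the drug levetiracetam, was at 55.7 to 88.6 CPM in D425 and 35.8 to 51.0 CPM in HD-MB03, a log2 difference of 0.84 ± 0.17 (edgeR adjusted p = 0.00171). These also did not overlap.

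SYT11 stood at 33.4, 23.9 and 48.7 CPM in D425 controls and at 52.2 to 73.3 CPM in D425 shCRX, against 0, 0.536, 1.29 and 8.31 CPM in HD-MB03 (parental, vector, then libraries 1 and 2 labelled shCRX). The lines did not overlap. In the set of high numbers the log2 difference was 2.88 ± 0.60 (edgeR adjusted p = 0.00363). In the set of low numbers, 1288 counts in D425 shCRX stood against 1 in HD-MB03 controls, a ratio of 290.6 with a counting interval of 52.1 to 11490.

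GRIA1 was at 20.1, 21.6 and 18.8 CPM in D425 controls and at 19.2, 4.34 and 14.8 CPM in D425 shCRX. In HD-MB03 it was at 4.16 CPM in the parental library and at 0.536, 0.929 and 0.788 CPM in the vector library and those labelled shCRX. The lowest D425 library was close to the highest of HD-MB03, and the log2 difference was 3.49 ± 0.47 (edgeR adjusted p = 8.96e-05). SCN8A, the sodium channel of the axon's initial segment, was at 7.0 to 16.8 CPM in D425 and at 1.04 to 3.75 CPM in HD-MB03, a log2 difference of 1.83 ± 0.35 (edgeR adjusted p = 0.00110). The GRIA1 and SCN8A differences were called in both sets of library numbers.

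The CNTNAP2 and RAB3A differences rested on the set of high numbers. CNTNAP2 had a log2 difference of 1.63 ± 0.28 in the mean (edgeR adjusted p = 5.08e-04), made of 3.09 in the set of high numbers, where D425 controls are compared, and 0.17 in the other. RAB3A had 0.81 ± 0.31 in the mean (edgeR adjusted p = 0.0483), with 1.69 and -0.08 in the sets of high and low numbers. Its call was lost without D425 parental library 1 or 2, the D425 vector library, D425 shCRX library 3, the HD-MB03 parental library or either HD-MB03 library labelled shCRX, with adjusted p-values from 0.0532 to 0.198. In GENCODE 29, 9.08% of its exon bases overlap MPV17L2 on the opposite strand.

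Calcium channels were among the genes lower in D425. CACNA1C had 0.168, 0.323 and 0.0909 CPM in D425 controls and 0.0923, 0 and 0 CPM in D425 shCRX, against the 3.65 to 16.1 CPM in HD-MB03 given above. In the set of high numbers the log2 difference was -4.31 ± 0.56 (edgeR adjusted p = 1.05e-04). In the set of low numbers, 54 counts in HD-MB03 controls stood against 1 count in D425 shCRX, 239.3 times as many per read counted with a counting interval of 41.2 to 9626. CACNA1B, the N-type channel of nerve endings, was at 0 to 0.256 CPM in D425 and at 1.07 to 3.65 CPM in HD-MB03. Its log2 difference in the set of high numbers was -4.97 ± 0.67 (edgeR adjusted p = 1.39e-04). CACNA1A, the P/Q-type channel that many cerebellar neurons use, had 3 counts in all libraries together.

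NRXN2, a neurexin, was at 0 to 0.414 CPM in D425 and at 1.61 to 3.12 CPM in HD-MB03 without overlap, and its log2 difference in the set of high numbers was -3.06 ± 0.60 (edgeR adjusted p = 0.00208). In the set of low numbers, 9 counts in HD-MB03 controls stood against 3 in the deeper D425 shCRX libraries, a ratio of 13.3 per read counted with a counting interval of 3.32 to 76.3. NLGN3, a neuroligin, was at 0.404 to 1.27 CPM in D425 and at 1.07 to 3.64 CPM in HD-MB03, where library 1 labelled shCRX was lowest and lay within the D425 range. The log2 difference was -1.77 ± 0.47 (edgeR adjusted p = 0.00794). It was called in the set of low numbers alone.

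DLG4 was at 23.6 to 44.5 CPM in D425 and at 52.1 to 82.0 CPM in HD-MB03 without overlap, a log2 difference of -1.0 ± 0.18 (edgeR adjusted p = 5.36e-04). STX1A was at 4.48 to 9.45 CPM in D425 and at 11.3 to 22.0 CPM in HD-MB03, also without overlap, with a log2 difference of -1.05 ± 0.25 (edgeR adjusted p = 0.00375). In GENCODE 29, 17.9% of its exon bases overlap BUD23 on the opposite strand, and the strand setting of the counting is not given in the sources used here. SYN2, a synapsin that tethers vesicles to the cytoskeleton, was at 18.2 to 31.9 CPM in D425 and at 30.9 to 41.6 CPM in HD-MB03. Only D425 parental library 2 reached the HD-MB03 range, and the log2 difference was -0.62 ± 0.17 (edgeR adjusted p = 0.0105). Leaving out the HD-MB03 parental library (adjusted p = 0.0621) or HD-MB03 library 1 labelled shCRX (0.0576) ended its call. The DLG4, STX1A and SYN2 differences were called in the set of low numbers alone, and their edgeR adjusted p-values in the set of high numbers were 0.0522, 0.103 and 0.208.

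DCX rested on 1 library. It was at 9.37 CPM in the HD-MB03 parental library, at 0.536, 1.36 and 2.44 CPM in the other HD-MB03 libraries and at 0 to 1.64 CPM in D425. The log2 difference was -1.79 ± 0.64 (edgeR adjusted p = 0.0370), and -0.19 without the HD-MB03 parental library (edgeR adjusted p = 0.908). It was also not called without D425 parental library 1 or 2, D425 shCRX library 3 or HD-MB03 library 2 labelled shCRX. DCX was called in the set of low numbers alone (edgeR adjusted p = 0.603 in the other).

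Of the genes not called in the mean of the sets, SNAP25 and VAMP1 were lower in D425 in the set of high numbers (log2 differences -2.77 and -1.54, edgeR adjusted p = 0.00456 and 0.0315). SYT1 (157.4 to 276.8 CPM in D425 and 165.5 to 235.4 CPM in HD-MB03), NLGN2 and VAMP2 had ranges that overlapped between the lines. For SYP the sets gave opposite signs, 0.54 with D425 controls and -0.58 with D425 shCRX, and neither passed (edgeR adjusted p = 0.0675 and 0.0540). SYN1, CPLX1, NRXN3, NLGN1, SCN1A, SCN2A, SCN3A and KCND2 were called in neither set nor in the mean.

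**Figure D4:**
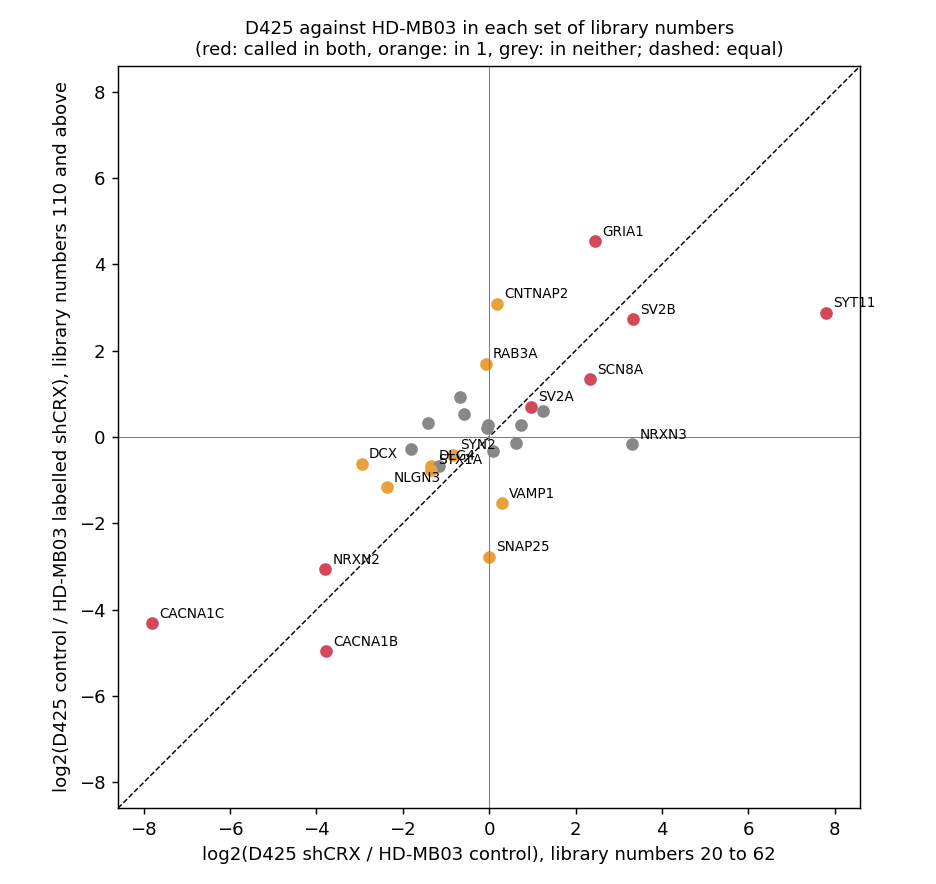
Log2 difference of D425 against HD-MB03 for the 29 tested genes in the set of library numbers 20 to 62 (x axis) and in the set 110 and above (y axis), red where called in both sets, orange in 1 and grey in neither, with a dashed line of equality. The 8 red genes (GRIA1, SV2B, SYT11, SCN8A and SV2A above 0, NRXN2, CACNA1B and CACNA1C under 0) have the same sign on both axes, and CNTNAP2 and RAB3A lie near 0 on the x axis.

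Lists of further genes of the same kinds were read against the shares of all genes in D425 (1.61% higher and 1.37% lower) and between the lines (24.4% and 21.6%). In D425, 0 of 16 tested vesicle genes passed. Of 33 tested adhesion genes, 3 were higher and 3 lower. LRFN5, a partner of presynaptic phosphatases, went from 25.4 ± 6.5 to 2.24 ± 1.04 CPM (log2 fold change -3.46, edgeR adjusted p = 0.00117), and FLRT2, a ligand of latrophilins, from 12.6 ± 1.4 to 2.50 ± 0.75 CPM (-2.27, adjusted p = 0.00472). NLGN4X was at 0.0373 CPM in controls and 1.22 CPM in shCRX, and 3 counts stand for 0.166 CPM in the deepest library, a control.

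Among 13 other glutamate receptor genes tested in D425, 3 were higher and 0 lower. GRIK4, a kainate receptor subunit, went from 1.52 ± 0.35 to 9.35 ± 1.26 CPM (SD, n = 3 each, log2 fold change 2.61, edgeR adjusted p = 0.00355). GRIK3, another kainate receptor subunit, went from 24.4 ± 13.5 to 115.1 ± 68.8 CPM (log2 fold change 2.23, edgeR adjusted p = 0.0317). GRIN3B went from 0.0269 to 1.40 CPM, and its control mean was under the 0.166 CPM that 3 counts stand for in the deepest library. Of 12 other calcium channel genes 1 was lower, CACNG5 (log2 fold change -2.26, edgeR adjusted p = 0.0112). None of 5 sodium channel, 30 potassium and HCN channel, 16 scaffold and 21 cytoskeleton and RNA-binding genes passed in D425. In HD-MB03, where 0.262% of all genes rose and 1.24% fell, 3 genes of these lists passed and all were lower. CADPS, a priming factor of dense-core vesicles, went from 7.49 ± 9.12 to 0.358 CPM. Its SD in the controls was above its mean, so the control libraries lay far apart. The others were ADGRL1, a latrophilin (log2 fold change -1.23, edgeR adjusted p = 0.0406), and KCNMA1, the BK potassium channel (-2.56, adjusted p = 0.0255).

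Between the lines, 5 of 30 other potassium and HCN channel genes were higher and 15 lower in D425. Of 16 other vesicle genes 8 were higher and 2 lower in D425, among them SYT9, SYNGR3 and SV2C, which were at or under 1.59 CPM in the mean of either HD-MB03 arm. Of 21 cytoskeleton and RNA-binding genes, 7 were higher and 7 lower. NEFH, the heavy neurofilament, was at 121.9 to 450.2 CPM in D425 and at 0.286 to 0.536 CPM in HD-MB03. REST itself was at 38.9 to 75.6 CPM in D425 and at 33.3 to 60.8 CPM in HD-MB03, with overlapping ranges. Between the lines the astrocyte markers summed to 72.9 to 163.7 CPM in D425 and to 229.5 to 315.7 CPM in HD-MB03, with 1 of 4 tested markers higher and 1 lower in D425. GFAP, an intermediate filament gene, was higher (1.0 to 1.65 CPM in D425 and at most 0.430 CPM in HD-MB03), and GJA1, a gap junction gene, was lower (at most 0.767 CPM in D425 and 83.3 to 151.5 CPM in HD-MB03). GFAP was called in neither set of library numbers taken singly. Its D425 level is near the 1.44 to 1.53 CPM that 3 counts stand for in the HD-MB03 controls. The part of other cell states in the line differences was not tested.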

How the data were processed

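Poly(A)-selected RNA was sequenced in 10 libraries. The deposited values are raw read counts per gene from HTSeq. The submitters' processing notes also name bcl2fastq, HISAT2 and DESeq2, with the build GRCh37 (hg19). Strand setting, annotation release and versions are not given in the sources used here. Leaving out the 5 summary entries, 50.5% to 79.3% of all reads fell in genes. Of 57820 identifiers, 51996 were given a symbol. No 2 libraries were identical.

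Counts were fitted in edgeR 4.0.16 (R 4.3.3) with TMM scaling, filterByExpr on the 4 line-by-arm groups, 4 group means and a robust quasi-likelihood dispersion (6 residual degrees of freedom). Tests were two-sided over 16006 genes, with Benjamini-Hochberg adjustment over all of them and calls at an adjusted p under 0.05. CPM uses the effective library size. Counting intervals (exact, 95%) and the floor of 3 counts use library totals and cover counting error alone. The fit was tested on simulated data. Alternatives were RLE scaling, library totals alone, no filter, DESeq2 1.42.0, vector or parental controls alone, thinning, an offset for GC content and length, a replicate block and leaving out each library. A fit of D425 alone and single sets of library numbers were added after seeing the data.

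The members, the gene lists and the naming rule were chosen with earlier results of these data known. The rule named CRX, members called in any comparison, the highest member of each role and up to 3 called genes of each further list. Exon lengths and overlaps came from GENCODE 29 (GRCh38) and promoters from RefSeq. Reads of paralogs and overlapping genes are uncertain. Some results for genes of the further lists are not reported here.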

Additional observations from a re-analysis of the deposited data

Results flagged for a closer look

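SYP was singled out because its shCRX effect differed between the lines by a test of the difference itself (log2 -2.26 ± 0.30, SE, edgeR adjusted p = 0.00177). All 3 D425 shCRX libraries were below all 3 D425 controls, and both HD-MB03 libraries labelled shCRX were above both HD-MB03 controls. CRX differed in the same direction in the same libraries. Against the vector libraries alone the difference was -2.50 with an edgeR adjusted p of 0.0921, and under the other alternatives run it lay between -2.13 and -2.62. Depth and the set of library numbers also changed in opposite directions with the arm in the 2 lines, and they cannot be told apart from the arm.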

How the results depend on the processing

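Of the results that count members called, the D425 count (3) was 2 to 4 under all alternatives but 1: with the vector library alone as control, an arm of 1 library assumed to vary like the other groups, it was 0, and 8 of all genes were called against 476. It was 2 to 3 without a library. The HD-MB03 count (0) became 2 without a low-count filter (SYT11 and NRXN3 higher) and 1 with DESeq2, and 0 to 1 without a library (1 without HD-MB03 replicate 1 labelled shCRX). Over all genes the HD-MB03 calls went from 241 to 790 without a filter and 769 with DESeq2. The count in the mean of the lines (0) became 1 with RLE scaling, 3 without a filter, 2 with DESeq2, 1 after thinning to equal depth and 0 to 1 without a library. The count for the difference of the effects (1) became 5 without a filter, 2 with DESeq2 and 0 with vector controls alone. Over all genes the calls in the mean went from 36 to 405 without a filter and 346 with DESeq2, and those of the difference from 666 to 1579, 1304 and, with vector controls alone, 3. The line count (15) ranged from 10 to 18, and fewer members (19 against 29) passed the filter after thinning. The cause of these changes was not tested. Whether a replicate number links shCRX and parental libraries of D425 in any other way is not known. For those numbered 1 and 2 the correlation of deviations was 0.0137, which rests on too few libraries to decide this. With a replicate block the counts were 3 in D425, 0 in HD-MB03, 1 in the mean, 2 in the difference and 11 between the lines, where STX1A, NLGN3, DCX and RAB3A lost their calls. The block terms take up the level of D425 parental and shCRX libraries 1 and 2. Between the lines, the D425 level in that fit therefore rests on the vector library and shCRX library 3. The 4 lost calls thus cannot be read as an effect of pairing by replicate number. With library totals alone the median of all genes in D425 moved from 0.02 to 0.15, and no called member changed direction under any alternative run. Of 15 members called between the lines, 10 kept the call under every alternative that gave a value, apart from the sets of library numbers taken singly, where CNTNAP2 and DLG4 were each called in 1 of the sets. Depth limits the 14 members that were not tested, and 3 counts stand for 1.44 to 1.53 CPM in the HD-MB03 controls.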

Other observations

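Regulators of neuronal genes were examined as a further list of 17, of which 14 were tested. In D425 shCRX, 1 was lower: SRRM4, a splicing factor of neuronal microexons, at 21.7 to 31.2 CPM in controls and 9.32 to 16.4 CPM in shCRX without overlap (log2 fold change -1.09, edgeR adjusted p = 0.0462). Between the lines, 3 of the 14 were higher and 7 lower in D425, where 24.4% of all genes were higher and 21.6% lower. NEUROG1, a proneural factor, was at 24.2 to 97.2 CPM in every D425 library and at 0, 0, 0.0715 and 0.0716 CPM in HD-MB03. INSM1, a zinc finger factor of neuroendocrine cells, was at 0.182 to 2.99 CPM in D425 and at 30.8 to 226.8 CPM in HD-MB03, so that these regulators separated the lines in opposite directions.

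Of 10 genes of dense-core granules, the other class of secretory vesicle, 5 were tested. PCSK2, a prohormone-cleaving enzyme, was lower in D425 shCRX (27.1 to 51.7 CPM) than in D425 controls (82.9 to 156.0 CPM), with an edgeR adjusted p of 0.0189 and a log2 fold change of -1.54. In HD-MB03 it was at 2.60 to 9.45 CPM, and the shCRX effect differed between the lines (-2.37, edgeR adjusted p = 0.0422). The granule proteins CHGA and CHGB, named after their values were seen, were at or under 2.05 CPM in every library.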
